A study of Saccharomyces cerevisiae with 17 samples.

Results

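Heat shock proteins and cytosolic chaperones were followed as 10 genes of budding yeast, chosen by name, of 6572 features in the count files. They are HSP12, HSP26, HSP42, HSP104, SSA1, SSA2, SSA3, SSA4, HSP82 and HSC82, and all passed the filter on low counts. Their choice was made with earlier results of these data known. At the peaks of the chromatin immunoprecipitation (ChIP) in the same series, 2 of 22 list a member, namely HSP26 and SSA3. The series asks how Brr6, which sits in the membranes around the nucleus, bears on transcription.

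RNA depleted of ribosomal RNA was sequenced from 4 groups with 2 biological replicates each, A and B, grown at 30 °C. The brr6-1 strain yDBK168 has lysine in place of an arginine in the presumed zinc finger of Brr6, and its allele is labelled with LEU2 and HIS3. The label of the wild-type strain YPH399 (WT) names neither marker. Both strains are MATα with the alleles ade2-10, lys2-801, leu2-1, Trp1-63 and ura3-52. Galactose groups grew in raffinose with 0.04% sucrose before 2 h in 2% galactose, and glucose groups grew in 2% glucose. Galactose therefore differs from glucose in the earlier carbon source as well as in the sugar at harvest. For ChIP, W303 cells carried a plasmid with a galactose promoter in front of FLAG-tagged Brr6N, a fragment of Brr6 without its membrane part, or Brr6ΔC4N, the same without the zinc finger (written deltaC4N below), or an empty vector. Each of these had 2 FLAG precipitates and 1 total extract. The mutation and the markers differ together between the RNA strains, and their parts in a difference cannot be told apart.

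Chaperones bind unfolded proteins and keep them from aggregating. Hsp70 and Hsp90 proteins fold their clients with energy from ATP, small heat shock proteins hold them without it, and Hsp104 pulls aggregated proteins apart. In yeast, the factor Hsf1 drives many of these genes, and the factors Msn2 and Msn4, which are held inactive when glucose is plentiful, drive HSP12, HSP26, HSP42 and HSP104 among many genes of the general stress response.

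Gene counts per library ran from 15059271 to 21637381. Replicates correlated at 0.988 to 0.995 across genes in log2 CPM, which are counts scaled by TMM to 1 library size. BRR6 itself stood at 216 and 169 CPM in brr6-1 galactose libraries, against 24.4 and 19.1 CPM in WT galactose libraries, and at 98.5 and 103 CPM in brr6-1 glucose libraries, against 28.0 and 29.5 CPM in WT glucose libraries. Its transcript rose in brr6-1 both times, by 3.14 ± 0.17 and 1.81 ± 0.16 on the log2 scale (adjusted p = 5.89e-06 and 0.000129), and a point mutation cannot be read from counts per gene. Differences below are log2 fold changes ± standard error with n = 2 libraries a group, and adjusted p is Benjamini-Hochberg adjusted over all 6297 genes tested with edgeR's quasi-likelihood test, with 0.05 as the threshold.

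In galactose, 3 of the 10 chaperone genes fell in brr6-1 and none rose, where 14.3% of all genes tested were lower and 8.29% higher. The median over the 10 was -0.32, beside 0.01 over all genes. The libraries of the 2 strains did not overlap for 7 of the 10, where 66.0% of all genes had no overlap. HSP26 and HSP12, both strongly induced by stress, had the largest falls of the 10, and HSP104 fell less. The Hsp70 and Hsp90 genes did not pass.

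HSP26 (YBR072W, chromosome II, 382030 to 382674, plus strand, R64) encodes a small heat shock protein that forms large complexes with unfolded clients. It had 18.6 and 12.6 CPM in brr6-1 galactose libraries, against 151 and 221 CPM in WT galactose libraries. Its glucose values were 12.0 and 17.8 CPM in brr6-1, against 19.6 and 18.3 CPM in WT. Both WT galactose libraries stood far above the other 6, which lay close together. HSP26 fell by 3.57 ± 0.26 in brr6-1 in galactose (adjusted p = 2.66e-05), a level 11.9-fold lower and the 7th most negative of the 6297 genes. In glucose its value was -0.34 ± 0.25 (adjusted p = 0.298).

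HSP12 (YFL014W, chromosome VI, 107256 to 107585, plus strand) encodes a small, intrinsically unfolded protein that associates with membranes. It had 30.4 and 27.2 CPM in brr6-1 galactose libraries, against 165 and 147 CPM in WT galactose libraries. Its glucose values were 11.7 and 17.7 CPM in brr6-1, against 9.45 and 10.9 CPM in WT. The groups did not overlap in either medium, and the order of the strains was the opposite in glucose. HSP12 fell by 2.44 ± 0.18 in brr6-1 in galactose (adjusted p = 3.68e-05), a level 5.43-fold lower and the 17th most negative of all genes. In glucose it had 0.53 ± 0.20 (adjusted p = 0.0579), and 0.79 without brr6-1 glucose replicate A. The glucose difference passed under 3 of 18 alternative settings. Among them were library totals alone as scaling (0.86, adjusted p = 0.0112) and at least 100 counts in each of 2 libraries (0.59, adjusted p = 0.0408). The galactose calls of HSP12 and HSP26 held under all 18 alternative settings, with values from -2.53 to -2.21 and from -3.88 to -3.28.

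HSP42 (YDR171W, chromosome IV, 806621 to 807748, plus strand) encodes the other small heat shock protein of the sequestering kind, which gathers misfolded proteins in cytosolic deposits. It had 10.3 and 12.3 CPM in brr6-1 galactose libraries, against 17.8 and 11.4 CPM in WT galactose libraries, and the groups overlapped. In glucose it had 12.3 and 8.13 CPM in brr6-1, against 2.94 and 4.18 CPM in WT, where the raw counts were only 46 and 73. The WT glucose libraries were below all 6 others. In galactose the difference was -0.37 ± 0.26 (adjusted p = 0.333). In glucose HSP42 rose by 1.51 ± 0.30 in brr6-1 (adjusted p = 0.00606), a call that was lost without WT glucose replicate A (1.23, adjusted p = 0.0618). Among 927 genes of like abundance (2 to 4 log2 CPM on average), 31.9% were higher in brr6-1 in glucose and the median was 0.37.

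HSP104 (YLL026W, chromosome XII, 88623 to 91349, plus strand) encodes the hexameric disaggregase. It had 322 and 378 CPM in brr6-1 galactose libraries, against 630 and 575 CPM in WT galactose libraries, with no overlap. In glucose it had 354 and 269 CPM in brr6-1, against 344 and 307 CPM in WT, and the groups overlapped. HSP104 fell by 0.78 ± 0.16 in brr6-1 in galactose (adjusted p = 0.00786), 1.72-fold, and had -0.06 ± 0.16 in glucose (adjusted p = 0.772). Without brr6-1 galactose replicate A its galactose call was lost (-0.67, adjusted p = 0.0891).

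**Figure D1:**
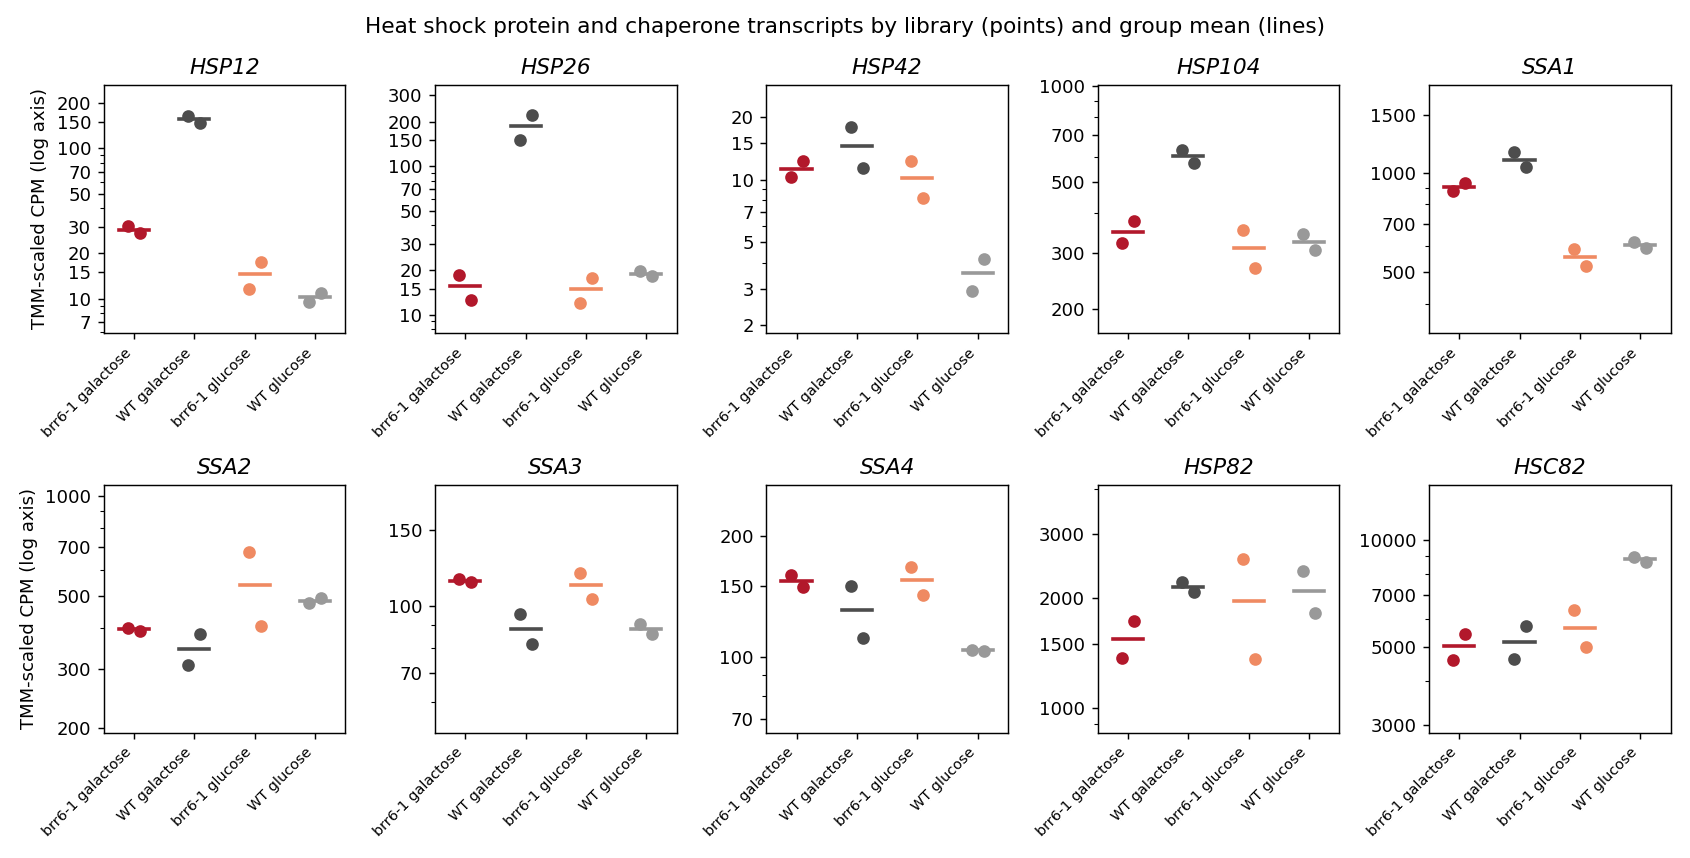
CPM (log axis) of each of the 10 genes in each of the 8 libraries, a point per library, with the brr6-1 group left of WT in each medium. HSP26 and HSP12 in WT galactose (151 and 221 CPM, 165 and 147 CPM) stand apart from the other groups, while SSA3 stays between 81.4 and 119 CPM in all 8 libraries. Lines are group means, and the axes differ between genes.

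The 4 SSA genes encode cytosolic Hsp70 proteins. SSA1 (YAL005C, chromosome I, 139503 to 141431, minus strand) and SSA2 (YLL024C, chromosome XII, 95566 to 97485, minus strand) are the abundant forms of unstressed cells. SSA3 (YBL075C, chromosome II, 84499 to 86448, minus strand) and SSA4 (YER103W, chromosome V, 364589 to 366517, plus strand) are the stress-inducible forms. SSA1 and SSA2 are nearly identical, and alignments that were not unique, 53.5 to 65.3% of HTSeq's lines per library, do not enter gene counts, so levels within close pairs are uncertain. In glucose libraries that share was 65.3 and 63.3% in brr6-1, against 57.4 and 57.25% in WT. In galactose libraries it was 56.7 and 55.5% in brr6-1, against 53.5 and 55.7% in WT.

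SSA1 had 878 and 927 CPM in brr6-1 galactose libraries, against 1154 and 1037 CPM in WT galactose libraries. The glucose libraries held 587 and 521 CPM in brr6-1, against 616 and 592 CPM in WT. The strains did not overlap in either medium, yet the differences were small at -0.28 ± 0.14 and -0.12 ± 0.14 (adjusted p = 0.166 and 0.487). SSA2 had 401 and 393 CPM in brr6-1 galactose libraries, against 309 and 384 CPM in WT galactose libraries. The glucose libraries held 676.5 and 406 CPM in brr6-1, against 477 and 491 CPM in WT, and the wide spread of the brr6-1 pair covered both WT libraries. The SSA2 differences were 0.20 ± 0.21 and 0.16 ± 0.21 (adjusted p = 0.522 and 0.563), and the glucose one passed without brr6-1 glucose replicate B (0.48, adjusted p = 0.0416).

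SSA3 had 115 and 113 CPM in brr6-1 galactose libraries, against 95.6 and 81.4 CPM in WT galactose libraries. Glucose values were 119 and 104 CPM in brr6-1, against 90.7 and 86.0 CPM in WT. Every brr6-1 library was above every WT library of its medium, and the strain differences were alike in size, 0.37 ± 0.13 in galactose and 0.33 ± 0.13 in glucose. Neither passed (adjusted p = 0.0584 and 0.0610), but both lay near the threshold and passed with a replicate block (adjusted p = 0.0418 and 0.0472). Both also passed with library totals alone as scaling (0.0115 and 0.00538) and under cyclic loess in limma-voom (0.0404 and 0.0252). With at least 100 counts in each of 2 libraries both passed as well (0.0356 and 0.0385). Of 18 alternative settings, 6 passed in galactose and 8 in glucose. In galactose SSA3 also passed without WT galactose replicate A (0.49, adjusted p = 0.0290) or brr6-1 glucose replicate B (0.37, adjusted p = 0.0425). In glucose it passed without WT galactose replicate A (0.33, adjusted p = 0.0380) or B (0.32, adjusted p = 0.0412), or without brr6-1 glucose replicate B (0.43, adjusted p = 0.0398).

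SSA4 had 159 and 149 CPM in brr6-1 galactose libraries, against 149.5 and 111.5 CPM in WT galactose libraries. Glucose values were 167 and 142 CPM in brr6-1, against 104 and 103.5 CPM in WT. The strains overlapped in galactose and stood apart in glucose. SSA4 rose by 0.58 ± 0.15 in brr6-1 in glucose (adjusted p = 0.0164) and had 0.24 ± 0.15 in galactose (adjusted p = 0.272). Its glucose call was lost without WT glucose replicate A (0.52, adjusted p = 0.122), without WT glucose replicate B (0.52, adjusted p = 0.125) and without brr6-1 glucose replicate A (0.45, adjusted p = 0.0807). Its galactose difference passed without WT galactose replicate A (0.46, adjusted p = 0.0384).

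HSP82 (YPL240C, chromosome XVI, 96496 to 98625, minus strand) and HSC82 (YMR186W, chromosome XIII, 632355 to 634472, plus strand) encode the Hsp90 pair. HSP82 is the more heat-inducible and HSC82 the more constitutive gene. HSP82 had 1372 and 1727 CPM in brr6-1 galactose libraries, against 2216 and 2084 CPM in WT galactose libraries. In glucose it had 2565 and 1365 CPM in brr6-1, against 2376 and 1822 CPM in WT. The strains were apart in galactose, but the brr6-1 glucose pair spread over the whole range, and the differences were -0.47 ± 0.27 and -0.10 ± 0.27 (adjusted p = 0.226 and 0.796).

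HSC82 had 4575 and 5441 CPM in brr6-1 galactose libraries, against 4604 and 5730 CPM in WT galactose libraries, and the groups overlapped. Glucose values were 6328 and 4984 CPM in brr6-1, against 8938 and 8672 CPM in WT. The WT glucose pair was the highest of the 4 groups. HSC82 fell by 0.64 ± 0.20 in brr6-1 in glucose (adjusted p = 0.0305) and had -0.05 ± 0.20 in galactose (adjusted p = 0.883). The glucose call was lost with a replicate block (adjusted p = 0.0524), with library totals alone as scaling (-0.32, adjusted p = 0.144) and under cyclic loess (-0.12, adjusted p = 0.495). It was also lost without WT glucose replicate A (-0.67, adjusted p = 0.102) or B (-0.72, adjusted p = 0.0895), or without brr6-1 glucose replicate B (-0.48, adjusted p = 0.0972). Of the 123 genes as abundant as HSC82 (over 10 log2 CPM), 49.6% were lower in brr6-1 in glucose, with a median of -0.46. The part of abundance in the HSC82 value was not tested.

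In glucose the members thus showed a different pattern, in which HSP42 and SSA4 rose and HSC82 fell. With 16.7% of all genes higher and 19.5% lower in that comparison, 3 calls among 10 members are near the background. The median over the 10 was 0.05, beside 0.03 over all genes, and the strains did not overlap for 7 of the 10 members, where 75.1% of all genes had no overlap. Without WT glucose replicate A none of the members was called by edgeR's test (adjusted p from 0.0618), and 1 was called without WT glucose replicate B.

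**Figure D2:**
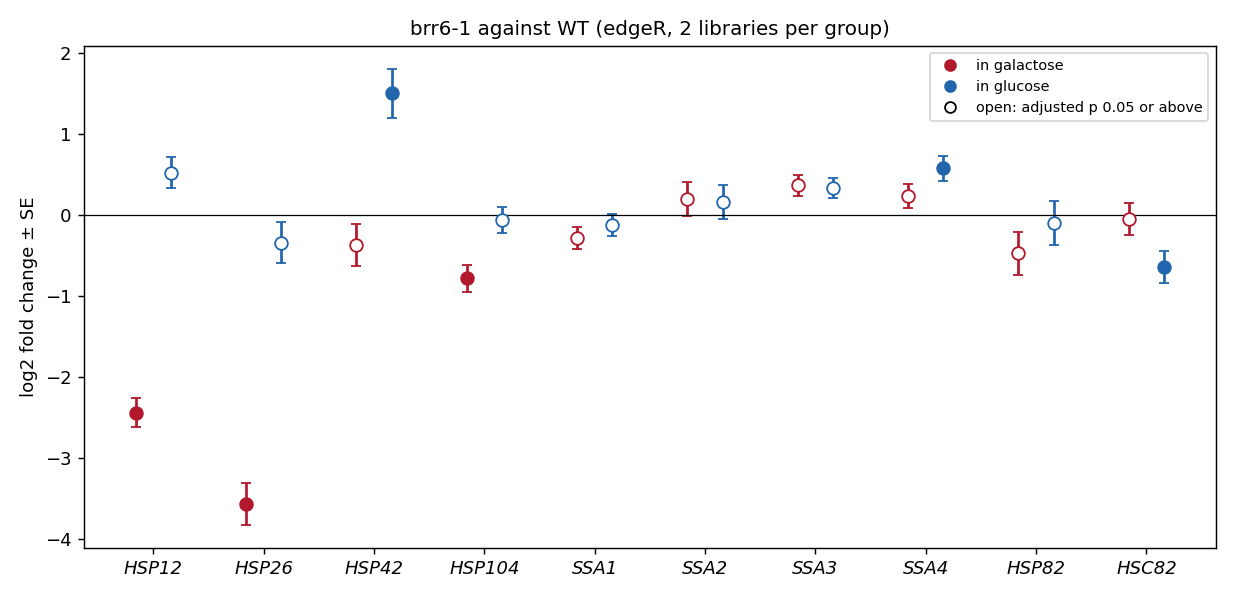
Log2 fold change of brr6-1 over WT for each gene in galactose and in glucose, with bars of 1 standard error from edgeR's fit and filled symbols where adjusted p was under 0.05. HSP26 and HSP12 lie at -3.57 and -2.44 in galactose, and HSP42 at 1.51 in glucose.

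The test of the difference between media asks whether the brr6-1 effect in galactose was unlike that in glucose. It passed for HSP26 (-3.24 ± 0.35, adjusted p = 0.00218), HSP12 (-2.97 ± 0.27, adjusted p = 0.00146) and HSP42 (-1.88 ± 0.40, adjusted p = 0.0312), all 3 toward a more negative effect in galactose. Of all genes, 3.94% passed in that direction and 1.65% in the other. HSP104 did not pass at -0.72 ± 0.23 (adjusted p = 0.0845), though it did without brr6-1 glucose replicate B (-0.90, adjusted p = 0.0341) and with DESeq2's Wald test (-0.69, adjusted p = 0.0415). The other 6 members ranged from -0.38 for HSP82 to 0.59 ± 0.28 for HSC82 (adjusted p = 0.215). HSP26 lost its call without WT glucose replicate B (-3.13, adjusted p = 0.0518). HSP42 lost it under cyclic loess (-1.52, adjusted p = 0.0552), without WT glucose replicate A (-1.60, adjusted p = 0.161) or B (-2.10, adjusted p = 0.121), without WT galactose replicate A (-1.51, adjusted p = 0.0727), and without brr6-1 galactose replicate A (-1.76, adjusted p = 0.136) or B (-2.01, adjusted p = 0.0627).

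Between media in brr6-1, few members differed. HSP12 and SSA1 rose in galactose, by 0.97 ± 0.19 (1.95-fold, adjusted p = 0.00560) and 0.70 ± 0.14 (1.63-fold, adjusted p = 0.00618), and none of the 10 fell, where 8.75% of all genes rose and 7.26% fell. The media did not overlap for 3 of the 10, where 57.6% of all genes had no overlap. HSP26 had 0.06 ± 0.25 (adjusted p = 0.904), HSP42 0.15 ± 0.27 (adjusted p = 0.764) and HSP104 0.17 ± 0.16 (adjusted p = 0.548). For each of these 3 genes the brr6-1 galactose libraries overlapped the brr6-1 glucose libraries. The HSP12 call was lost without brr6-1 galactose replicate A (0.88, adjusted p = 0.0519) and the SSA1 call without brr6-1 galactose replicate B (0.66, adjusted p = 0.0530). Without brr6-1 glucose replicate B, SSA2 (-0.77, adjusted p = 0.0104) and HSP82 (-0.73, adjusted p = 0.0442) passed as lower. HSC82 had -0.18 ± 0.20 (adjusted p = 0.611), and 0.47 under cyclic loess (adjusted p = 0.0292).

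Between media in WT, the stress-induced genes HSP12, HSP26 and HSP42 rose most. Of the 10 members, 5 rose and 1 fell, where 24.3% of all genes rose and 20.5% fell, and the median was 0.60 beside 0.10 over all genes. The media did not overlap for 8 of the 10, where 75.9% of all genes had no overlap. HSP12 rose by 3.94 ± 0.20 (15.3-fold, adjusted p = 4.95e-07), the 42nd most positive gene, and HSP26 by 3.29 ± 0.25 (9.81-fold, adjusted p = 9.42e-06). HSP42 rose by 2.03 ± 0.30 (4.08-fold, adjusted p = 0.000529), and 47.0% of the 927 genes in its abundance class (2 to 4 log2 CPM) rose, with a median of 0.52. HSP104 and SSA1 rose by 0.89 ± 0.16 and 0.86 ± 0.14 (adjusted p = 0.00171 and 0.000916). HSC82 fell by 0.77 ± 0.20 (adjusted p = 0.0102), a call that was lost without WT galactose replicate A (-0.62, adjusted p = 0.0575) and whose sign turned under cyclic loess (0.07, adjusted p = 0.656). SSA2 had -0.48 ± 0.21 (adjusted p = 0.0883) and passed without brr6-1 glucose replicate A (-0.50, adjusted p = 0.0152) or B (-0.48, adjusted p = 0.0143). SSA4 had 0.33 ± 0.15 (adjusted p = 0.0972) and passed without WT galactose replicate B (0.49, adjusted p = 0.0156). SSA3 and HSP82 had 0.00 ± 0.13 and 0.03 ± 0.27 (adjusted p = 0.988 and 0.929), and HSP82 passed under cyclic loess (0.70, adjusted p = 0.0364). Among the 123 genes over 10 log2 CPM, the class of HSC82 and HSP82, 60.2% fell in WT, with a median of -0.58. The comparisons between strains and those between media share libraries, so their values are not independent of each other.

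**Figure D3:**
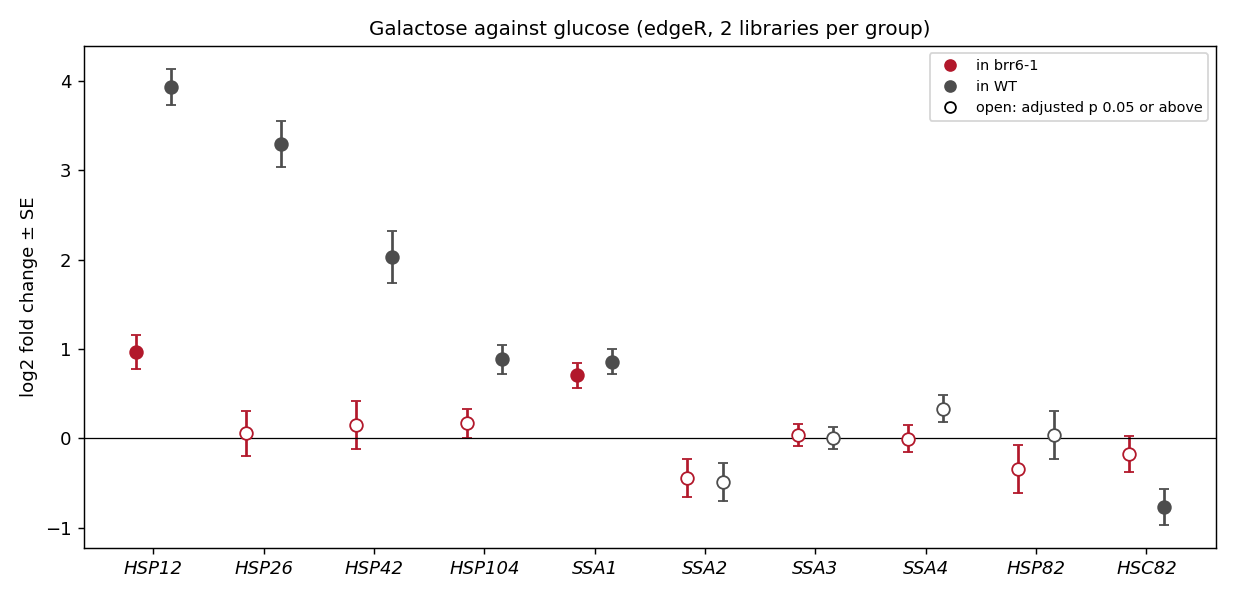
Log2 fold change of galactose over glucose for each gene in brr6-1 and in WT, with bars of 1 standard error and filled symbols where adjusted p was under 0.05. HSP12, HSP26 and HSP42 lie at 0.97, 0.06 and 0.15 in brr6-1, while they reach 3.94, 3.29 and 2.03 in WT.

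Levels per length (RPKM, from CPM and coding length) put HSC82 first and HSP82 second in every group. HSC82 had a mean of 2364 ± 289 RPKM in brr6-1 galactose, against 2440 ± 376 in WT galactose, and 2670 ± 449 in brr6-1 glucose, against 4157 ± 89.1 in WT glucose (SD, n = 2 each). HSP42 was last in every group, at 10.0 ± 1.23 RPKM in brr6-1 galactose, against 12.9 ± 4.06 in WT galactose, and 9.06 ± 2.62 in brr6-1 glucose, against 3.15 ± 0.779 in WT glucose. The genes that changed rank most were HSP12 and HSP26. In brr6-1 galactose the order below HSP82 was SSA1, SSA2, HSP104, HSP12, SSA4, SSA3 and HSP26, with HSP12 (87.1 ± 6.89 RPKM) and SSA4 (79.8 ± 3.89 RPKM) overlapping. In WT galactose it was SSA1, HSP12 (473 ± 39.5 RPKM), HSP26 (288 ± 76.8 RPKM), HSP104, SSA2, SSA4 and SSA3, with no overlap between neighbours.

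In brr6-1 glucose the order was SSA1, SSA2, HSP104, SSA4, SSA3, HSP12 and HSP26, with SSA1 overlapping SSA2 and SSA3 (57.1 ± 5.52 RPKM) overlapping HSP12 (44.4 ± 12.9 RPKM). In WT glucose the order was the same, and HSP12 (30.9 ± 3.18 RPKM) overlapped HSP26 (29.3 ± 1.48 RPKM). The 10 genes together took 0.816 to 1.09% of gene counts, whatever the group. HSC82 alone made 58.0 and 59.3% of the members' counts in brr6-1 galactose libraries, against 48.5 and 55.2% in WT galactose libraries, and 58.4 and 63.6% in brr6-1 glucose libraries, against 68.9 and 71.6% in WT glucose libraries.

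Within the small heat shock proteins, the ratio of HSP26 to HSP42 (RPKM) was 3.15 and 1.79 in brr6-1 galactose libraries, against 14.8 and 34.0 in WT galactose libraries. In glucose it was 1.71 and 3.82 in brr6-1, against 11.7 and 7.64 in WT, so the ratio was lower in each mutant library than in any WT library. Within the Hsp70 genes, the inducible pair over the constitutive pair (SSA3 plus SSA4 over SSA1 plus SSA2) was 0.213 and 0.197 in brr6-1 galactose libraries, against 0.167 and 0.135 in WT galactose libraries. In glucose it was 0.225 and 0.264 in brr6-1, against 0.177 and 0.174 in WT, again with each mutant library above every WT library. The ratio of HSP82 to HSC82 was 0.298 and 0.316 in brr6-1 galactose libraries, against 0.479 and 0.362 in WT galactose libraries, and 0.403 and 0.272 in brr6-1 glucose libraries, against 0.264 and 0.209 in WT glucose libraries, so the order of the strains differed between media. No test was made on the ratios.

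Other genes of the folding and stress systems were read from lists chosen by function, with earlier results of these data known. In galactose the 20 targets of Msn2 and Msn4 stood out in count, with 15 lower in brr6-1, none higher (edgeR; 14.3% of all genes lower) and a median of -1.17 beside 0.01 over all genes. They include TSL1, a subunit of trehalose synthesis (51.5 and 84.8 CPM in brr6-1 galactose libraries, against 305 and 216 CPM in WT galactose libraries; -1.94 ± 0.26, adjusted p = 0.000680), and PNC1, a nicotinamidase (-1.68 ± 0.23, adjusted p = 0.000764). DDR2, a small stress-induced protein, had -1.69 ± 0.38 (adjusted p = 0.0114) and did not pass without brr6-1 galactose replicate A (adjusted p = 0.111) or B (adjusted p = 0.0873). Without the same 2 libraries, 10 and 11 of the 20 were lower. HOR7 had -1.18 ± 0.41 (adjusted p = 0.0601) and passed without brr6-1 glucose replicate A (adjusted p = 0.00367) or B (adjusted p = 0.00468). The transcripts of the factors themselves did not pass in galactose, with -0.07 for MSN2, 0.22 for MSN4 and -0.06 for HSF1.

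Outside the Msn2 and Msn4 list, the counts for the Hsp70 and Hsp90 partners and the other Hsf1 targets in galactose were near the shares over all genes, of which 8.29% were higher and 14.3% lower. Of 16 partners of Hsp70, 1 was higher and 2 lower. FES1, an exchange factor of Hsp70, fell by 0.89 ± 0.15 (133.7 and 141 CPM in brr6-1 galactose libraries, against 220.2 and 288 CPM in WT galactose libraries; adjusted p = 0.00284). SSE2, another exchange factor, had -0.73 ± 0.18 (adjusted p = 0.0160) and did not pass without WT galactose replicate B (adjusted p = 0.0525) or brr6-1 galactose replicate A (adjusted p = 0.145). JJJ3, a J-protein, had 0.83 ± 0.20 (adjusted p = 0.0164) and did not pass without the same 2 libraries (adjusted p = 0.0659 and 0.169). SSB1, a ribosome-bound Hsp70, had -0.55 ± 0.20 (adjusted p = 0.0752) and passed without WT galactose replicate A (-0.79, adjusted p = 0.0133), where the list had 1 higher and 5 lower.

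Of 12 partners of Hsp90, 1 was higher and 1 lower in galactose, TAH1 (0.81 ± 0.21, adjusted p = 0.0203) and SGT1 (-0.58 ± 0.16, adjusted p = 0.0283). Neither passed without WT glucose replicate A or B, WT galactose replicate B or brr6-1 galactose replicate A, with adjusted p from 0.0510 to 0.135 for TAH1 and from 0.0642 to 0.221 for SGT1, and TAH1 not without brr6-1 galactose replicate B (0.0609). TAH1 lies on chromosome III. Without the genes of that chromosome, edgeR called 400 genes higher and 814 lower in galactose, of 6138 tested. With them it called 522 higher and 901 lower, of 6297. The part of the chromosome in the TAH1 value was not tested. None of the 14 subunits of the chaperonin and prefoldin passed in edgeR's test, nor with DESeq2. With library totals alone as scaling 3 were higher, and under cyclic loess 1, CCT6, which had 0.34 ± 0.16 (adjusted p = 0.152) in the edgeR fit with TMM scaling and 0.51 under cyclic loess (adjusted p = 0.0131). The list had 1 lower without WT galactose replicate A, and 1 higher without brr6-1 glucose replicate B or brr6-1 galactose replicate B. Of the 13 other Hsf1 targets, 1 was higher and 2 lower, namely BTN2 (0.64 ± 0.21, adjusted p = 0.0498), FES1 and MBF1 (-0.66 ± 0.20, adjusted p = 0.0384). BTN2 did not pass without any 1 of the 4 WT libraries or of the 2 brr6-1 galactose libraries (adjusted p from 0.0813 to 0.274). MBF1 did not pass without WT glucose replicate A (adjusted p = 0.0609) or B (0.0611), WT galactose replicate B (0.228), or brr6-1 galactose replicate A (0.208) or B (0.105). YAK1, a kinase of the stress response, was the only 1 of 8 regulators to pass (-0.70 ± 0.13, adjusted p = 0.00485), and not without brr6-1 galactose replicate A (adjusted p = 0.0601). HSP31, a methylglyoxalase, was the only 1 of 9 other tested genes named for heat shock to pass, at 10.6 and 11.2 CPM in brr6-1 galactose libraries, against 57.9 and 34.5 CPM in WT galactose libraries (-2.08 ± 0.26, adjusted p = 0.000520).

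In glucose the lists differed in direction. Of the 14 chaperonin and prefoldin subunits 11 were lower in brr6-1 (edgeR; 19.5% of all genes lower) and none higher, with a median of -0.51 beside 0.03 over all genes. Among the 736 genes of 8 to 10 log2 CPM, the class of CCT2, CCT3, CCT4, CCT7 and CCT8, 37.6% were lower. Among the 123 genes over 10 log2 CPM, the class of CCT5, CCT6 and TCP1, 49.6% were lower, with a median of -0.46. In the class of GIM3 (1824 genes of 6 to 8 log2 CPM) 32.6% were lower. The part of abundance in these values was not tested. CCT5 had 1555 and 1253 CPM in brr6-1 glucose libraries, against 2122 and 2267 CPM in WT glucose libraries (-0.64 ± 0.16, adjusted p = 0.0138). With GIM3 (-0.63 ± 0.15, adjusted p = 0.0104) and TCP1 (-0.59 ± 0.14, adjusted p = 0.0103) it was among the 3 largest differences. None of these 3 passed without WT glucose replicate B (adjusted p from 0.0662 to 0.0801), CCT5 and GIM3 did not without WT glucose replicate A (0.0538 and 0.0513), and GIM3 did not without brr6-1 glucose replicate A (0.0634). Of the 12 Hsp90 partners 7 were lower and 1 higher, with PPT1, a phosphatase, at -0.94 ± 0.14 (adjusted p = 0.00184). These counts rest on few libraries and on the scaling. Without WT glucose replicate A, 1 of the 14 and 2 of the 12 were lower, and without replicate B none and 2. Without brr6-1 glucose replicate A, 5 and 3 were lower. With library totals alone as scaling none and 2 were lower, and under cyclic loess 2 and 6.

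Of 8 tested regulators of the stress response, 4 rose in brr6-1 in glucose and none fell, with a median of 0.35 (16.7% of all genes rose). They were MSN4 (7.70 and 7.79 CPM in brr6-1 glucose libraries, against 3.00 and 3.38 CPM in WT glucose libraries; 1.28 ± 0.20, adjusted p = 0.00218), GIS1 (1.31 ± 0.31, adjusted p = 0.0111), MSN2 (0.79 ± 0.27, adjusted p = 0.0428) and HSF1 (0.53 ± 0.18, adjusted p = 0.0451, named after its value was seen). Among the 927 genes of 2 to 4 log2 CPM, the class of MSN4, GIS1 and MSN2, 31.9% were higher, with a median of 0.37. Under cyclic loess 2 of the 8 were called, GIS1 having 0.78 (adjusted p = 0.0519) and MSN2 0.22 (adjusted p = 0.494). DESeq2's Wald test also called 2, and not MSN2 (adjusted p = 0.0647), while all 8 were called with library totals alone as scaling. Without WT glucose replicate A or B, 1 of the 8 was called, and GIS1 (adjusted p = 0.0657 and 0.0956) and MSN2 (0.128 and 0.244) were not. MSN2 also did not pass without brr6-1 glucose replicate A (0.212) or brr6-1 galactose replicate A (0.0669) or B (0.0675). Of the 20 Msn2 and Msn4 targets, XBP1, GPH1 and TPS2 rose and PNC1 fell, 3 against 1, with GPH1, glycogen phosphorylase, at 66.1 and 70.0 CPM in brr6-1 glucose libraries, against 35.3 and 38.7 CPM in WT glucose libraries (0.88 ± 0.14, adjusted p = 0.00222). Without WT glucose replicate A or B, 1 of the 20 rose and none fell.

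Of the 13 other Hsf1 targets, 2 rose and 5 fell in glucose, where 16.7% of all genes rose and 19.5% fell. BTN2, which sorts misfolded proteins into deposits, rose by 1.30 ± 0.22 (30.4 and 18.7 CPM in brr6-1 glucose libraries, against 9.96 and 9.96 CPM in WT glucose libraries; adjusted p = 0.00338), and FES1 fell by 0.75 ± 0.15 (adjusted p = 0.00605). HSP30, a plasma membrane protein, rose by 2.18 ± 0.29 (22.97 and 16.8 CPM in brr6-1 glucose libraries, against 4.98 and 3.78 CPM in WT glucose libraries; adjusted p = 0.00124). Like TAH1, HSP30 lies on chromosome III. Of the 9 other genes named for heat shock, HSP30, HSP150 and SSC1 rose and HSP31 fell, 3 and 1, against 1 and none without WT glucose replicate A or B. Of the 16 Hsp70 partners, 1 (SWA2) rose and 4 (FES1, SSB1, SSB2 and XDJ1) fell, against none and 1 without either of these libraries. Several genes stand in more than 1 list.

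**Figure D4:**
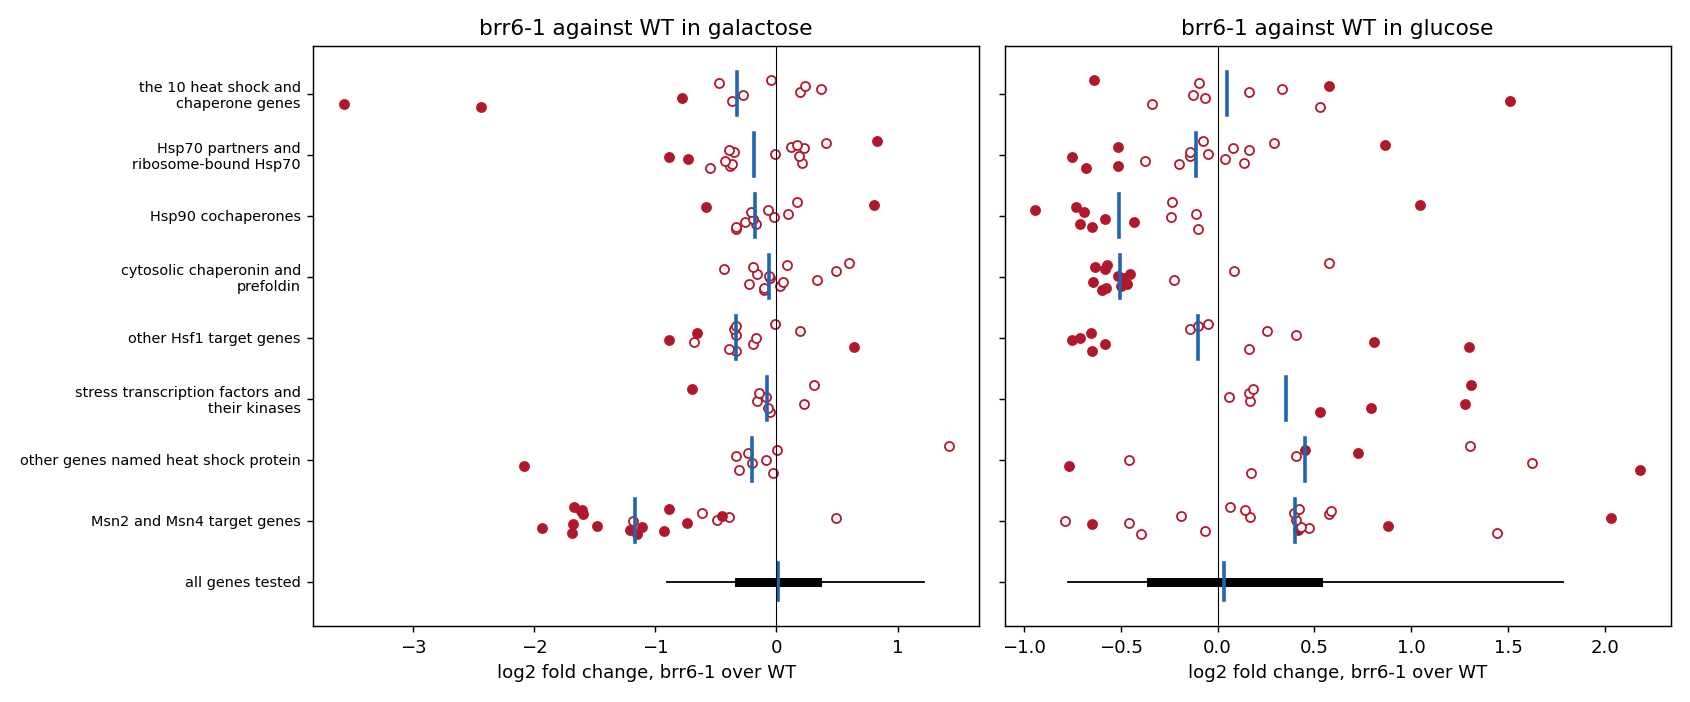
Log2 fold change of brr6-1 over WT for each tested gene of 7 lists and of the 10 members, with galactose left and glucose right, a point per gene (filled where adjusted p was under 0.05) and a blue line at the list's median. The bottom row gives all genes tested as a thick line over the central 50% and a thin line over the central 90% of values. The targets of Msn2 and Msn4 have a median of -1.17 in galactose, against 0.40 in glucose.

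Between media in brr6-1, 7 of the 20 Msn2 and Msn4 targets rose in galactose and none fell, with a median of 0.37 (8.75% of all genes rose). In WT, 18 rose and none fell, with a median of 1.83 (24.3% of all genes rose). The test of whether the brr6-1 effect depends on the medium passed in 11 of the 20, all toward a more negative effect in galactose, with a median of -1.42 beside -0.05 over all genes, of which 3.94% passed in that direction. For the 14 chaperonin and prefoldin genes none passed in that test, and the median was 0.45.

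Some genes outside the 10 followed a member closely over the 8 libraries, measured as Pearson's r of log2 CPM. The libraries form 4 groups of 2, so r is a description of these libraries. HSP26 was followed most closely by DOT5 (r = 0.988), RHO5 (0.978) and MSB2 (0.976). MSB2, a signalling mucin of the cell surface, had 29.4 and 32.0 CPM in brr6-1 galactose libraries, against 71.2 and 83.5 CPM in WT galactose libraries, and 28.8 and 27.0 CPM in brr6-1 glucose libraries, against 29.2 and 32.6 CPM in WT glucose libraries. As with HSP26, the WT galactose pair was the only one that stood out. SSA1 was followed by GUT1, glycerol kinase (0.987), PUT4, a proline permease (0.987), and RGI1 (0.986). HSP82 was followed by SIS1, a J-protein of the cytosolic Hsp70 (0.891), RBH1 (0.854) and FAS2, a subunit of fatty acid synthase (0.840). SIS1 had 440.2 and 531 CPM in brr6-1 galactose libraries, against 595 and 647 CPM in WT galactose libraries, and 799.5 and 519 CPM in brr6-1 glucose libraries, against 789.8 and 665 CPM in WT glucose libraries, with the same wide spread within the brr6-1 glucose pair as HSP82.

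The ChIP table places 2 of its 22 peaks at a member, and the other 8 members are listed at none. Fold enrichment here is the authors' deposited table value, the mean signal of a FLAG precipitate divided by the mean signal of its construct's total extract. The HSP26 peak on chromosome 2 (381820 to 383380, R64) is 1560 bases long. It holds the whole coding sequence of 645 bases, starts 210 bases before the coding start and reaches 706 bases beyond the coding end. The table lists RDH54, a DNA translocase gene of recombination, and the feature YBR072C-A, which had 0 to 8 counts per RNA library, at the same peak. The peak also holds the coding start of RDH54 (383112 to 385988, plus strand).

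At the HSP26 peak the folds in the authors' deposited table were 2.11 and 2.30 for Brr6N and 0.813 and 0.743 for deltaC4N, against 0.704 and 0.738 for the vector. Both Brr6N precipitates were far above the other 4, and the deltaC4N precipitates were next to the vector. The ratio of mean folds was 3.06 for Brr6N over the vector, 2.83 for Brr6N over deltaC4N and 1.08 for deltaC4N over the vector. Among the 22 peaks it ranked 5th by the mean Brr6N fold.

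The SSA3 peak (chromosome 2, 84140 to 86000) is 1860 bases long and holds 1502 coding bases, 77.0% of the gene. The coding start of SSA3 lies 448 bases outside the peak, and the peak reaches 359 bases beyond its coding end. There it runs into ILS1 (81043 to 84261, minus strand), the isoleucyl-tRNA synthetase gene, and holds the coding start of ILS1. The table lists ILS1 at this peak as well. The folds in the authors' deposited table were 1.94 and 2.14 for Brr6N and 0.765 and 0.785 for deltaC4N, against 0.790 and 0.853 for the vector. Again the Brr6N precipitates stood alone, and both deltaC4N folds were below both vector folds. The ratio of mean folds was 2.48 for Brr6N over the vector, 2.63 for Brr6N over deltaC4N and 0.943 for deltaC4N over the vector, and the peak ranked 8th.

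Over all 22 peaks, Brr6N was above the vector in both precipitates at 86.4%, above deltaC4N at 59.1%, and deltaC4N was above the vector at 54.5%. The 2 chaperone peaks are among the peaks with Brr6N above both. So is the peak that lists HSP30, which is not a member, with other features (chromosome 3, 154820 to 156900). Its folds were 1.93 and 2.09 for Brr6N and 0.741 and 0.705 for deltaC4N, against 0.773 and 0.717 for the vector. At the other 20 peaks the median of the mean folds was 1.44 for Brr6N (0.426 to 6.99) and 1.09 for deltaC4N, against 0.675 for the vector, in the authors' deposited table. No test of a single peak was made, and the labels do not say whether precipitates a and b came from separate cultures.

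**Figure D5:**
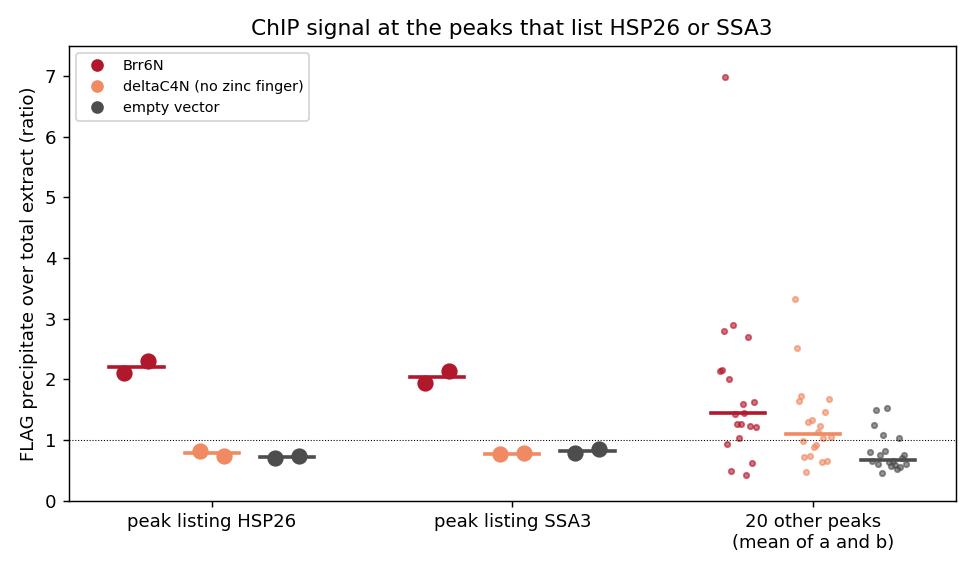
The authors' deposited fold enrichment at the HSP26 and SSA3 peaks, a point per FLAG precipitate, for Brr6N, deltaC4N and the vector, beside the mean folds of the other 20 peaks (small points), with lines at group means, or at medians for the other peaks, and a dotted line at a ratio of 1. Brr6N lies at 1.94 to 2.30 at both peaks, while deltaC4N and the vector lie between 0.704 and 0.853.

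The 2 genes at peaks had unlike RNA patterns. HSP26 was 11.9-fold lower in brr6-1 in galactose, while SSA3 was higher in every brr6-1 library than in any WT library of its medium, with a difference that did not pass. RDH54 had 0.35 ± 0.13 in galactose (adjusted p = 0.0723), where it passed without brr6-1 glucose replicate B (adjusted p = 0.0454). In glucose RDH54 had 0.47 ± 0.13 (adjusted p = 0.0181) and did not pass without WT glucose replicate A (adjusted p = 0.136) or B (adjusted p = 0.149) or brr6-1 glucose replicate A (adjusted p = 0.0978). ILS1 had 0.10 ± 0.17 and -0.06 ± 0.17 (adjusted p = 0.712 and 0.811), and under cyclic loess 0.35 in galactose (adjusted p = 0.0461) and 0.41 in glucose (adjusted p = 0.0249). ChIP was done in W303 cells grown overnight in galactose and RNA-seq in another strain background after 2 h, so binding and transcript values do not come from the same cells.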

How the data were processed

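Members and gene lists were chosen with earlier results of these data known. The RNA files hold raw read counts per gene, deposited by the authors, with a file for each library. The submitters' processing notes name cutadapt, TopHat, HTSeq and R64, and no source used here says whether HTSeq used strand. HTSeq's total lines were left out: alignments that were not unique (53.5 to 65.3%), reads in no gene (23.4 to 37.5% of all reads assigned to a gene or to none), and ambiguous ones (0.0890% or less). Within the WT galactose pair the share in no gene was 37.3% for replicate A and 26.7% for replicate B. Of 6572 IDs, 5898 matched the R64 gene table. The table's lengths are coding lengths, and no other gene in it overlaps a member. The count files, however, also hold YAL004W, which overlaps SSA1, and YBR072C-A, which overlaps HSP26. They had 2 to 13 and 0 to 8 counts per RNA library. Whether reads shared with them were left out of the SSA1 and HSP26 counts was not tested.

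The deposited ChIP table gives signal per peak (mean and maximum, under the headers RPKM and RPM) and their fold enrichment ratio over total extract. Recomputing that fold gave the deposited ratio within 2.5e-09. Reads were aligned with Bowtie 1.1.2 per the submitters' processing notes, and no source used here names the peak caller. The growth labels give different numbers of biological replicates for the ChIP libraries.

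Genes passed edgeR's filterByExpr (minimum count 10) in 6297 cases. After TMM scaling, counts were fitted in 1 quasi-likelihood model of 4 groups and all 8 libraries (4 residual degrees of freedom), with Benjamini-Hochberg adjustment over all genes in each of 5 comparisons. Replicates of a group differed beyond sampling noise (chi-square per degree of freedom 9.88 to 85.0). Labels do not tie letters A and B across groups. Alternatives changed the scaling (DESeq2 size factors, library totals alone, cyclic loess in limma-voom), the filter (1 count in all, or 100 counts in each of 2 libraries) or the model (a replicate block, robust empirical Bayes, DESeq2's Wald test). Others dropped chromosome III, the libraries outside the comparison, or each library in turn. For ChIP, the maximum signal replaced the mean.

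Genes were named by rule: all members, per list and strain comparison up to 3 genes that passed with no overlap and the largest change and 1 that did not pass, the 3 genes most like HSP26, SSA1 and HSP82, genes at the same peaks, and BRR6. Not every gene so named is printed, and MSN2, MSN4 and HSF1 are given in both media because they are the factors of 2 lists. The fitting code was tested on simulated data. How reads split between near-identical copies was not analysed here. Software was R 4.3.3, edgeR 4.0.16, limma 3.58.1, DESeq2 1.42.0, numpy 2.4.6, pandas 2.3.3 and matplotlib 3.10.9 under Python 3.11.15.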

Additional observations from a re-analysis of the deposited data

Results flagged for a closer look

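For 3 members the brr6-1 effect differed between media by edgeR's test of the difference itself. HSP12 had -2.97 in galactose relative to glucose (log2, adjusted p = 0.00146), HSP26 had -3.24 (adjusted p = 0.00218) and HSP42 had -1.88 (adjusted p = 0.0312). HSP12 and HSP26 carry this through the galactose libraries, with 27.2 to 30.4 CPM of HSP12 in brr6-1 galactose libraries, against 147 to 165 CPM in WT galactose libraries. HSP42 carries it through the glucose libraries, with 8.13 to 12.3 CPM in brr6-1, against 2.94 to 4.18 CPM in WT. What sets these apart was not tested.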

How the results depend on the processing

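Members called by edgeR numbered 3 for brr6-1 against WT in galactose (2 to 5 with each library left out in turn), 3 in glucose (0 to 4), 2 for galactose against glucose in brr6-1 (1 to 4), 6 in WT (5 to 7) and 3 for the difference (1 to 4). With at least 100 counts in each of 2 libraries, 5 were called in glucose. With a replicate block 4, 3, 2, 6 and 3 were called; it gained SSA3 in both media and lost HSC82 in glucose, and changed no other member's call. The labels do not say whether the letters A and B share more than a name across groups. The correlation of A minus B between groups ran from -0.0431 to 0.38, the highest for WT galactose with brr6-1 glucose, and a shared factor was not tested. With the maximum signal in place of the mean, Brr6N over the vector was 2.54 at the HSP26 peak (main 3.06; 2.99 to 3.11 with each precipitate left out) and 1.83 at the SSA3 peak (main 2.48; 2.46 to 2.50), and the Brr6N fold at SSA3 was 1.66 (main 2.04; 1.94 to 2.14), with 2.11 to 2.30 at HSP26. Signs turned under cyclic loess for HSC82 between media (0.467 in brr6-1 and 0.0739 in WT) and for ILS1 in glucose (0.41). The cause was not tested.

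Library totals alone shifted the median of all genes to 0.25 in galactose and 0.36 in glucose (brr6-1 over WT), and to 0.25 in brr6-1 and 0.40 in WT (galactose over glucose), against 0.01, 0.03, 0.04 and 0.10 with TMM. Calls that were higher then made 75.0, 86.5, 80.9 and 79.7%, against 36.7, 46.1, 54.7 and 54.3%, so small differences depend on the scaling. With 2 libraries a group, p-values rest on few cultures. The spread behind them was estimated over all 8 libraries and drawn toward that of other genes, so it is not that of the compared groups alone. HSP42 has the fewest counts of the members (46 in 1 WT glucose library). Close pairs (SSA1 with SSA2, HSP82 with HSC82) can lose shared reads, and how many they lost was not analysed.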
